A study of Pantherophis guttatus with 6 samples.

Results

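The transcripts described here encode the enzymes that make and recover purine nucleotides. They were chosen by name, as a list of 10 genes that follows the pathway: *PRPS1*, *PPAT*, *GART*, *PFAS*, *PAICS*, *ADSL*, *ATIC*, *IMPDH2*, *GMPS* and *HPRT1*. Of these, 9 had a row of that name among the 25731 complete genes of the count table, and all 9 had enough counts to be tested. *PAICS* had no row of its own name and is described through a row annotated as PAICS-like (LOC117662104), which is not counted among the 9. None of the 9 enzymes passed the test between the genotypes. The counts of *PFAS* were divided between a pair of rows, and the share of the row named *PFAS* ranged from 39.5% to 71.0% over the libraries.

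Purine rings are assembled step by step on PRPP, an activated sugar phosphate, up to IMP, the common precursor of AMP and GMP. Salvage enzymes bypass this route by joining free bases to PRPP. Purines serve nucleic acid synthesis in every dividing cell, and in reptile skin they also form the reflecting crystals of the iridophores, in which guanine is the main component.

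The libraries hold poly(A) RNA of embryonic corn snake (*Pantherophis guttatus*) dorsal skin at day 40, from 3 embryos homozygous for the hypomelanistic allele (mh/mh) and 3 wild-type (+/+) embryos. The hypomelanistic morph has reduced melanin. According to the study, the embryos shared a clutch and heterozygous parents, and each was genotyped at markers beside the mapped interval. The study names sex as the main source of difference among these embryos, but the labels give neither sex nor batch for a library, so no fit could take either into account and neither can be told apart from genotype if it differed between the groups.

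Total counts per library ranged from 29958657 to 38541392. *TYR*, which encodes tyrosinase of melanin synthesis and served to check the labels, was at 4.78, 5.13 and 5.01 CPM (counts per 1e6 counts of a TMM-scaled library) in hypomelanistic libraries 1, 2 and 3 and at 42.6, 34.5 and 34.5 CPM in wild-type libraries 1, 2 and 3. Ribosomal RNA genes took 10.2% to 13.5% of the counts of hypomelanistic libraries and 7.39% to 8.83% in wild-type libraries. Keratinocyte, fibroblast and melanophore markers were present in every library. The summed level of 10 skeletal muscle markers ranged from 811 to 3152 CPM in hypomelanistic and from 997 to 3554 CPM in wild-type libraries. All 8 fibroblast markers had a lower estimate in hypomelanistic skin, and none passed the test. Hypomelanistic 1 had the lowest muscle sum and the highest sum of 11 iridophore markers (522 CPM, against 301 to 366 CPM elsewhere), mostly through *GPNMB*, which is not particular to iridophores.

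In the genotype comparison, 0 of the 9 enzymes passed an adjusted p of 0.05 in the edgeR quasi-likelihood test, and this held for DESeq2 too. The share of all tested genes that passed was 0.0235% with edgeR (4 of 17025) and 0.476% with DESeq2 (85 of 17853). At an unadjusted p of 0.05, edgeR took 0 of the 9, against 5.63% of all tested genes. The estimates were higher in hypomelanistic skin for 4 enzymes and lower for 5. Their median log2 fold change was -0.01, beside 0.00 over all tested genes. The adjusted p values of the 9 enzymes lay between 0.828 and 0.993 in edgeR. The 95% intervals reached from a fold of 0.717 at the lowest, for *PPAT*, to a fold of 1.49 at the highest, for *PFAS*. Libraries did not overlap between the genotypes for 2 of the 9, *PFAS* and *HPRT1*, and the share over all tested genes was 12.2%. In a bulk sample, fewer cells of a type and less RNA per cell cannot be told apart.

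**Figure D1:**
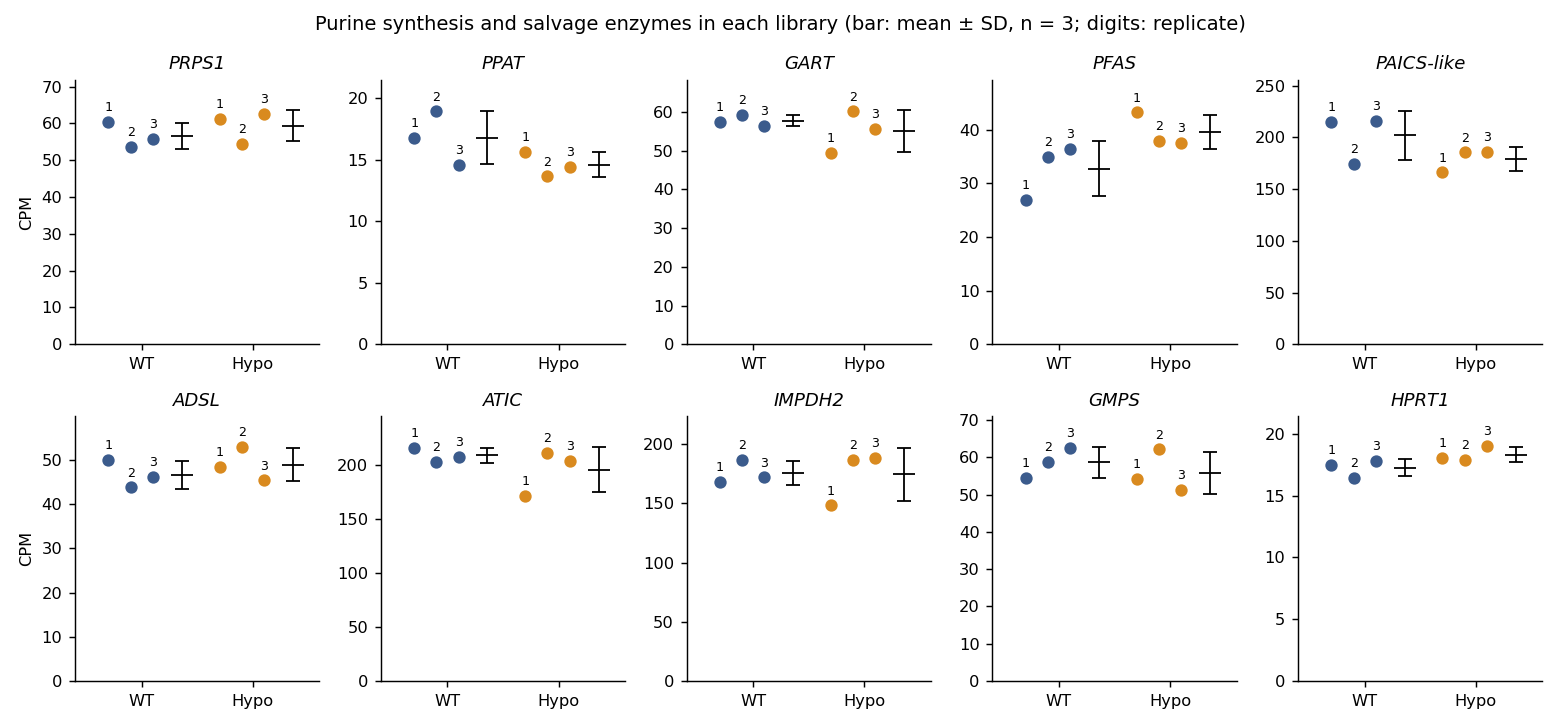
Level of each enzyme in CPM (y axis, from 0) in the 3 wild-type and 3 hypomelanistic libraries (x axis), in pathway order. Points are libraries with their replicate number, bars are the mean ± SD. The groups overlap in every panel but those of PFAS and HPRT1, and in HPRT1 the nearest libraries are at 17.9 and 17.8 CPM.

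*PRPS1* encodes a PRPP synthetase, which supplies the pathway with its starting compound. It lies on the plus strand of scaffold NW_026844102.1 of the CU assembly, from base 2411902 to 2415676, with 7 exon blocks of 2153 bases in all. Its level was 61.1, 54.5 and 62.5 CPM in hypomelanistic libraries 1, 2 and 3 and 60.4, 53.6 and 55.7 CPM in wild-type libraries 1, 2 and 3. The groups overlapped over most of their range, and the lowest library of each was replicate 2. The log2 fold change (hypomelanistic against wild-type throughout) was 0.07 ± 0.079 (SE), with a 95% interval from -0.12 to 0.26, and ranged from 0.03 to 0.13 as single libraries were left out. The isozyme *PRPS2*, in the same reaction, was at 60.1, 73.0 and 67.9 CPM in hypomelanistic and at 73.1, 77.5 and 77.1 CPM in wild-type libraries. All 3 hypomelanistic libraries were thus below all wild-type libraries. The log2 fold change of *PRPS2* was -0.18 ± 0.082 and did not pass (edgeR adjusted p = 0.828). The ratio of *PRPS1* to *PRPS2* per kb of exon was 1.47, 1.08 and 1.33 in hypomelanistic and 1.19, 0.995 and 1.04 in wild-type libraries. These ratios overlapped (exact two-sided permutation p = 0.2, where 3 against 3 cannot go below 0.1).

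*PPAT* encodes the amidotransferase that commits PRPP to purine synthesis. It lies on the minus strand of scaffold NW_026844029.1, from base 8270792 to 8339810, in 12 exon blocks of 5442 bases. It was at 15.7, 13.7 and 14.5 CPM in hypomelanistic libraries and at 16.8, 18.9 and 14.6 CPM in wild-type libraries. Wild-type 2 was the highest, and wild-type 3 lay within the hypomelanistic range. The log2 fold change was -0.20 ± 0.119, with an interval from -0.48 to 0.08, and it was -0.11 without wild-type 2. This was the widest interval after that of *PFAS*, and *PPAT* had the lowest level per kb of the 9 enzymes.

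Next, *GART* encodes a protein with 3 activities, among them a step that takes a formyl group from folate. Its row lies on the minus strand of scaffold NW_026844016.1, from base 44740780 to 44785577, in 22 exon blocks. This is the scaffold of *TYR*, but *GART* is 41.5 Mb away from it. It was at 49.5, 60.2 and 55.7 CPM in hypomelanistic libraries and at 57.5, 59.2 and 56.5 CPM in wild-type libraries. The highest and the lowest value were both from hypomelanistic embryos, 2 and 1. For *GART*, the log2 fold change was -0.07 ± 0.082, with an interval from -0.26 to 0.13, and it was 0.0052 without hypomelanistic 1.

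The most abundant of 3 rows named GART-like (LOC132710509) lies on a scaffold with only 2 genes and has 21 exon blocks of 3994 bases, against 4074 bases for *GART*. It was at 56.8, 63.7 and 58.6 CPM in hypomelanistic libraries and at 69.4, 69.6 and 67.2 CPM in wild-type libraries, so every hypomelanistic library was below every wild-type library. Its log2 fold change was -0.20 ± 0.065, with an interval from -0.36 to -0.05, and it did not pass after adjustment (edgeR unadjusted p = 0.0164, adjusted p = 0.828). In the newer annotation no gene is named *GART*, and LOC132710509 itself lies between *DNAJC28* and *SON*, the place of *GART* in the CU assembly. Only uniquely mapped pairs were counted, so pairs that fit both rows equally are in neither. Summed over both rows, a choice made after the data were seen, the level was 106, 124 and 114 CPM in hypomelanistic and 127, 129 and 124 CPM in wild-type libraries, and the log2 fold change was -0.14 ± 0.071 (interval -0.31 to 0.03). The row named *GART* took 46.6%, 48.6% and 48.7% of the pair's counts in hypomelanistic and 45.3%, 46.0% and 45.7% in wild-type libraries. These shares did not overlap (exact two-sided permutation p = 0.1, the smallest that 3 against 3 allow).

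There were 2 more rows named GART-like, both at a few CPM and both with a higher estimate in hypomelanistic skin. LOC117657118, the neighbour of *GART* on its scaffold, was at 2.19, 4.03 and 3.14 CPM in hypomelanistic and at 1.96, 2.65 and 2.002 CPM in wild-type libraries (log2 fold change 0.50 ± 0.268, interval -0.13 to 1.13). LOC132710508, the other gene on the scaffold of LOC132710509, was at 2.94, 3.78 and 3.76 CPM in hypomelanistic and at 1.82, 3.06 and 2.42 CPM in wild-type libraries (0.52 ± 0.237, interval -0.03 to 1.08). The groups overlapped for both rows, neither passed (edgeR adjusted p = 0.828 for each), and neither is part of the sum.

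*PFAS* encodes the synthase that adds nitrogen from glutamine in the step after the first folate-dependent one. Its row lies on the minus strand of scaffold NW_026844108.1, from base 85519 to 158125, in 29 exon blocks of 5258 bases. It was at 43.2, 38.0 and 37.5 CPM in hypomelanistic libraries and at 26.8, 34.9 and 36.3 CPM in wild-type libraries. In CPM, all hypomelanistic libraries were above all wild-type libraries, by a narrow margin except for hypomelanistic 1 and wild-type 1. Per kb of exon, a scale without the TMM factors, the groups overlapped. The length is the same in every library, so this overlap came with the scaling of the libraries and not with the length. The log2 fold change was 0.28 ± 0.126, the largest of the 9 in size, with an interval from -0.02 to 0.57 (edgeR unadjusted p = 0.0644, adjusted p = 0.828). It was 0.15 without wild-type 1 and 0.21 without hypomelanistic 1.

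A row named PFAS-like (LOC117658727), with 28 exon blocks of 5048 bases, went the other way. It was at 17.6, 24.8 and 25.2 CPM in hypomelanistic libraries and at 41.1, 25.0 and 25.9 CPM in wild-type libraries. The other libraries were close to each other, whereas wild-type 1 was far above and hypomelanistic 1 far below them. For PFAS-like, the log2 fold change was -0.44 ± 0.224, with an interval from -0.97 to 0.08, and -0.17 without wild-type 1. The row named *PFAS* took 71.0%, 60.5% and 59.8% of the counts of the pair in hypomelanistic libraries and 39.5%, 58.3% and 58.4% in wild-type libraries. The share thus moved by library more than the sum did. Summed over both rows, the level was 60.8, 62.8 and 62.7 CPM in hypomelanistic and 67.9, 59.9 and 62.2 CPM in wild-type libraries, which overlapped. The log2 fold change of the sum was -0.03 ± 0.067 (interval -0.19 to 0.13). The newer annotation holds a single *PFAS*, which is LOC117658727, between the same tRNA genes that flank the *PFAS* row in the CU assembly. Whether the rows are alleles of a single gene or separate genes was not tested, so the value of either row alone is uncertain.

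**Figure D2:**
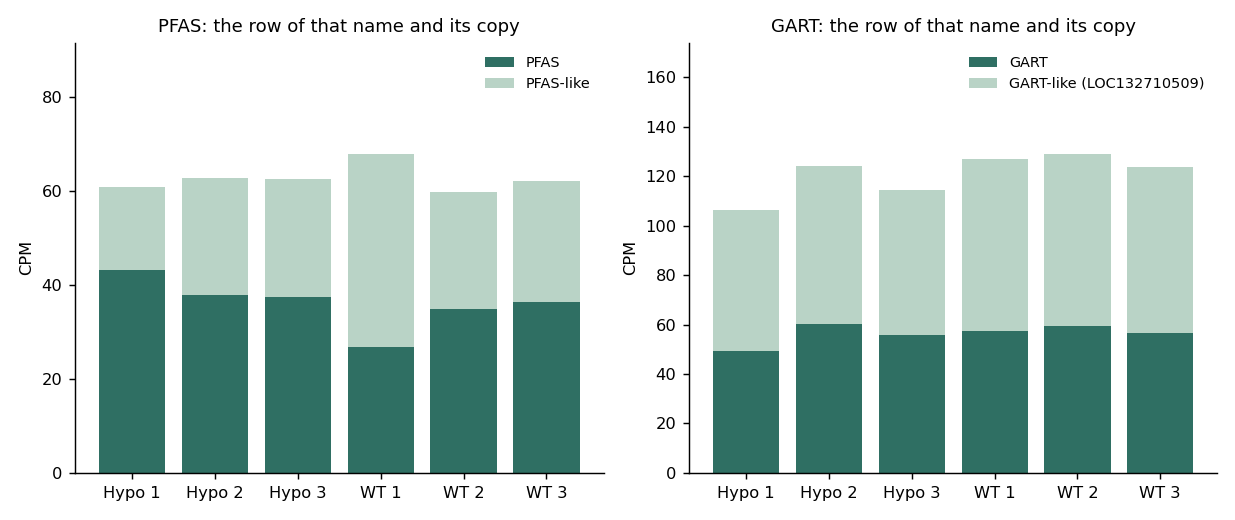
Level in CPM (y axis, from 0) of the PFAS row and the PFAS-like row (left) and of the GART row and the GART-like row (right), stacked for each of the 6 libraries (x axis). The PFAS row holds 71.0% of its pair in hypomelanistic 1 and 39.5% in wild-type 1, while the stacks stay between 59.9 and 67.9 CPM. The GART row holds 45.3% to 48.7% of its pair.

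*PAICS* encodes the enzyme for a carboxylation and the step after it in the middle of the route. The PAICS-like row lies 773 bases from *PPAT* on the opposite strand, head to head with it, at 8340584 to 8353984. In the annotation of a newer corn snake assembly (ASM5975653v1), used only for names and gene order, *PAICS* is the neighbour of *PPAT*. There the symbol *PAICS* carries the identifier LOC117662105, which the count table names ZKSCAN2-like and places inside the span of *PPAT* on the opposite strand. That row held 39 to 65 counts a library and shared no exon base with *PPAT*. The PAICS-like row was at 166, 186 and 186 CPM in hypomelanistic libraries and at 215, 175 and 216 CPM in wild-type libraries. Wild-type 2 fell among the hypomelanistic libraries, while wild-type 1 and 3 were above all of them. The log2 fold change was -0.17 ± 0.0995, with an interval from -0.41 to 0.06 (edgeR adjusted p = 0.828). Without wild-type 2 it was -0.27 (edgeR unadjusted p = 0.0159, adjusted p = 0.986).

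Since *PPAT* and PAICS-like are side by side in the genome, their levels were set against each other library by library. The ratio of PAICS-like to *PPAT* per kb of exon was 30.7, 39.3 and 37.2 in hypomelanistic libraries and 37.0, 26.7 and 42.8 in wild-type libraries. In counts, with no division by length, it was 9.23 to 14.8 over the libraries. Wild-type 2 had the lowest ratio, with the highest *PPAT* and the lowest PAICS-like level of its group. The ratios overlapped between the genotypes (exact two-sided permutation p = 0.8).

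*ADSL* encodes adenylosuccinate lyase, which acts both on the way to IMP and on the branch to AMP. It lies on the plus strand of scaffold NW_026844064.1, from base 18876905 to 18898024, in 14 exon blocks. A row antisense to it (LOC117655729) shares no exon base with it and held 39 to 78 counts a library. *ADSL* was at 48.5, 53.0 and 45.4 CPM in hypomelanistic libraries and at 50.1, 43.8 and 46.2 CPM in wild-type libraries. The groups overlapped, and the log2 fold change was 0.07 ± 0.084, with an interval from -0.13 to 0.27, and it was 0.0091 without hypomelanistic 2 and 0.12 without wild-type 1.

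*ATIC* encodes the bifunctional enzyme of the last steps to IMP. It lies on the plus strand of scaffold NW_026844021.1, from base 141083133 to 141187014, in 16 exon blocks of 1997 bases. It was at 172, 211 and 204 CPM in hypomelanistic libraries and at 216, 203 and 207 CPM in wild-type libraries. Hypomelanistic 1 was the lowest, and the other hypomelanistic libraries lay within the wild-type range. For *ATIC*, the log2 fold change was -0.10 ± 0.089, with an interval from -0.30 to 0.11, and it was -0.01 without hypomelanistic 1.

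The branch from IMP to GMP runs through *IMPDH2* and *GMPS*. *IMPDH2*, for IMP dehydrogenase, lies on the minus strand of scaffold NW_026844106.1, from base 15637621 to 15659248, in 15 exon blocks. It was at 148, 187 and 188 CPM in hypomelanistic libraries and at 168, 187 and 172 CPM in wild-type libraries, with hypomelanistic 1 lowest and hypomelanistic 3 highest. The log2 fold change was -0.01 ± 0.104, with an interval from -0.25 to 0.24. It was 0.10 without hypomelanistic 1 and 0.04 without wild-type 2, so that its sign rested on single libraries.

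*IMPDH1* encodes the other IMP dehydrogenase and was at 67.7 to 79.5 CPM (log2 fold change 0.01 ± 0.078). The ratio of *IMPDH2* to *IMPDH1* per kb of exon was 2.62, 3.66 and 3.52 in hypomelanistic libraries and 2.93, 3.51 and 3.52 in wild-type libraries. *IMPDH2* was thus the more abundant isozyme in all 6 libraries, and the ratios overlapped between the genotypes (exact two-sided permutation p = 0.9).

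*GMPS* encodes GMP synthetase. It lies on the plus strand of scaffold NW_026844092.1, from base 45202327 to 45245511, in 18 exon blocks of 5378 bases. It was at 54.1, 62.1 and 51.2 CPM in hypomelanistic libraries and at 54.5, 58.9 and 62.6 CPM in wild-type libraries. Hypomelanistic 1 and 3 were below the wild-type range and hypomelanistic 2 was within it. For *GMPS*, the log2 fold change was -0.07 ± 0.093, with an interval from -0.29 to 0.15, and it ranged from -0.15 without hypomelanistic 2 to -0.01 without hypomelanistic 3.

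*HPRT1* encodes the salvage enzyme for hypoxanthine and guanine. It shares its scaffold and strand with *PRPS1*, 1490 kb away, and lies from base 3905433 to 3918334 in 9 exon blocks. It was at 18.04, 17.87 and 18.98 CPM in hypomelanistic libraries and at 17.49, 16.45 and 17.81 CPM in wild-type libraries. In CPM, the hypomelanistic libraries were all above the wild-type libraries, by less than the spread within either group (exact two-sided permutation p = 0.1). Per kb of exon, without the TMM factors, the groups overlapped, which again came with the scaling of the libraries. The log2 fold change was 0.08 ± 0.080, with an interval from -0.10 to 0.27, and it was 0.05 without wild-type 2. Taken as single rows, *HPRT1* was also the steadiest of the 9 enzymes. Its coefficient of variation over the 6 libraries was 4.61%, against 14.8% for *PFAS* and 12.3% for *PPAT*. The value for *PFAS* is that of its row alone. The sum with PFAS-like stayed between 59.9 and 67.9 CPM, so *HPRT1* was not shown to be steadier than that sum.

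**Figure D3:**
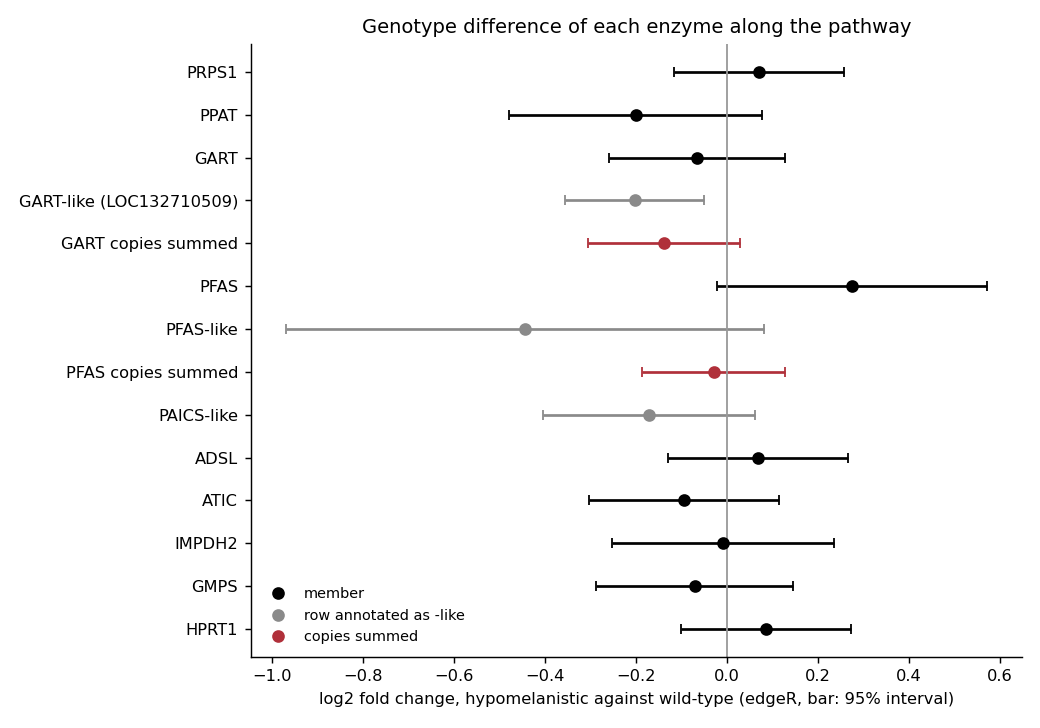
Log2 fold change of each enzyme, hypomelanistic against wild-type (x axis), in pathway order (y axis), with its 95% interval. Black points are the 9 enzymes, grey points rows annotated as -like and red points the sums of both rows. Every interval includes 0 except that of GART-like (-0.36 to -0.05), and PFAS and PFAS-like lie on opposite sides with their sum at -0.03.

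Taken as a group, the 9 enzymes summed to 610, 697 and 678 CPM in hypomelanistic libraries and to 667, 676 and 669 CPM in wild-type libraries. Hypomelanistic 1 had the lowest sum, in which the most abundant enzymes weigh most. The median deviation of the 9 enzymes from their mean log2 levels was 0.0075 there. It was 0.0039 to 0.0860 in the other libraries. Hypomelanistic 1 was the lowest library for *GART*, *ATIC*, *IMPDH2* and PAICS-like, yet the highest for *PFAS*. Its muscle marker sum was the lowest and its iridophore marker sum the highest of the 6. The iridophore sum was high mostly through *GPNMB* (327 CPM, against 143 to 196 CPM in the other libraries). The part of both sums in these levels was not tested. The fibroblast sum of hypomelanistic 1 was 99144 CPM and that of hypomelanistic 3 was 98401 CPM, against 112363 to 119008 CPM in the other libraries, and its part was not tested either. The sum of 20 cell cycle genes, which mark dividing cells, ranged from 787 to 859 CPM in hypomelanistic and from 772 to 846 CPM in wild-type libraries. Hypomelanistic 1 was at the top of that range mostly through *TOP2A*, with 102 CPM against 50.6 to 63.5 CPM in the other libraries. *CDC6* (28.6 against 13.7 to 17.8 CPM) and *PLK1* (56.6 against 42.5 to 49.4 CPM) were also highest there. Other genes of the list, such as *BUB1* and *CCNB1*, were lowest there.

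Levels of different enzymes were compared per kb of exon, as TPM (transcripts per 1e6, from counts per kb of exon), over the 6 libraries. The scale is relative within a library, and ribosomal RNA takes part of it. The order given here depends on the division by length, and part of it differs in CPM. PAICS-like was at 233 ± 25.4 TPM (SD, n = 6), *ATIC* at 233 ± 18.7 TPM and *IMPDH2* at 205 ± 18.4 TPM. The ranges of these leading rows overlapped, although *ATIC* was above *IMPDH2* within each of the 6 libraries. *PRPS1* at 61.8 ± 3.52 TPM and *ADSL* at 61.3 ± 4.51 TPM followed and were not separated from each other. *GART* was at 31.8 ± 2.66 TPM, or at 68.9 ± 6.78 TPM with GART-like added. Pairs of reads that fit both rows equally were not counted, so this sum may be too low.

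Below these came *GMPS* at 24.5 ± 2.65 TPM and *HPRT1* at 22.2 ± 0.554 TPM, whose ranges overlapped. *PFAS* was at 15.8 ± 2.50 TPM, or at 27.9 ± 1.52 TPM with PFAS-like added, a sum that may be too low for the same reason as that of *GART*. *PPAT*, the committing step, was the lowest of the 9 at 6.66 ± 1.10 TPM, and its range did not reach that of *PFAS*. *ATIC* and *IMPDH2* were above 97.4% and 97.1% of the tested genes, whereas *PPAT* was above 39.8%. The ratio of *ATIC* to *PPAT* per kb ranged from 29.2 to 42.1 over the libraries and overlapped between the genotypes (exact two-sided permutation p = 0.6). In counts it ranged from 10.7 to 15.5.

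**Figure D4:**
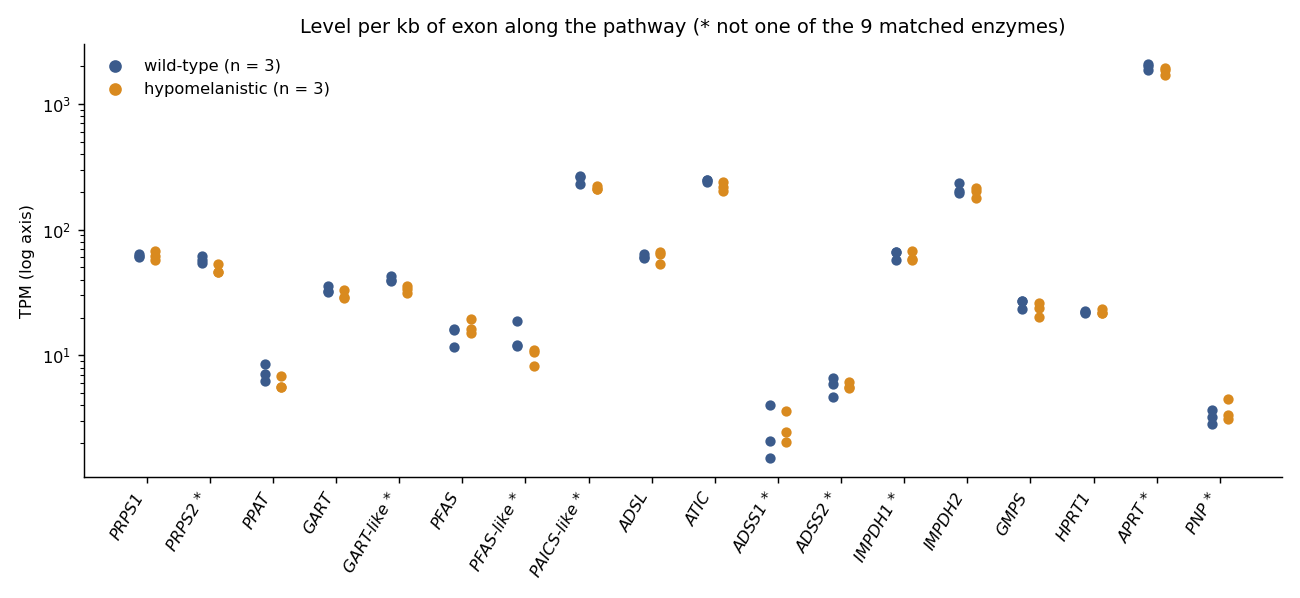
Level per kb of exon in TPM (y axis, log scale) along the pathway (x axis), with 1 point for each of the 3 wild-type and 3 hypomelanistic libraries. Asterisks mark genes that are not among the 9 enzymes. APRT stands highest at 1681 to 2084 TPM and PPAT is the lowest of the 9 at 5.63 to 8.55 TPM.

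The other salvage enzymes set the level of *HPRT1* in context. *APRT*, which recovers adenine, was at 922, 1112 and 1136 CPM in hypomelanistic libraries and at 1180, 1051 and 1029 CPM in wild-type libraries, with a log2 fold change of -0.04 ± 0.107. Per kb of exon it was at 1898 ± 139 TPM (SD, n = 6), rank 113 among the tested genes. Its level was 72.4 to 95.5 times that of *HPRT1* in the same library per kb, and 51.1 to 67.4 times in counts. These ratios overlapped between the genotypes (exact two-sided permutation p = 0.4). *ADK*, the adenosine kinase, was at 64.0 ± 3.65 TPM. *PNP*, which frees bases from inosine and guanosine, was at 3.46 ± 0.575 TPM. *MTAP*, the phosphorylase of methylthioadenosine, was at 28.4 to 33.6 CPM (log2 fold change 0.13 ± 0.079), and *DCK*, a deoxynucleoside kinase, was at 11.4 to 13.8 CPM (0.12 ± 0.097).

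On the branch to AMP, a row named ADSS2-like (LOC117660000) was at 66.5 ± 5.46 TPM, while the rows named *ADSS2* and *ADSS1* were at 5.76 ± 0.676 and 2.64 ± 0.983 TPM. These encode adenylosuccinate synthetases, and *ADSS1* is the form of muscle. *ADSS1* was highest in hypomelanistic 2 (9.06 CPM) and wild-type 2 (9.32 CPM), the libraries with the highest muscle marker sums of their groups. The muscle share of the sample moved with it, and its part in the level was not tested. *GMPR*, a GMP reductase that leads back to IMP, had 2.09 to 3.75 CPM and a log2 fold change of -0.31 ± 0.238, and *GMPR2* of 0.08 ± 0.275.

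The wider pathway was read from 11 further lists, for PRPP supply, the AMP and GMP branch, salvage, breakdown, nucleotide kinases, folate and serine supply, pyrimidine synthesis, ribonucleotide reductase, regulators and transporters. They held 94 tested genes besides the 9 enzymes. With edgeR, 0 of the 94 passed, 45 estimates were higher and 49 lower, and their median log2 fold change was -0.01. At an unadjusted p of 0.05, edgeR took 7 of them (7.45%, beside 5.63% of all tested genes), and DESeq2 passed 0 after adjustment. In CPM, the libraries of the genotypes did not overlap for 17 of the 94 (18.1%, beside 12.2% of all tested genes). Of these, 9 were higher and 8 lower in hypomelanistic skin. The list counts follow by role. Of 5 genes of the AMP and GMP branch, 4 estimates were higher and 1 lower, and of 7 salvage genes, 5 were higher and 2 lower.

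Of the 6 genes of PRPP supply, 5 had a lower estimate and 1 a higher one. *TKT*, transketolase of the pentose phosphate route, was at 209 to 253 CPM in hypomelanistic and 247 to 265 CPM in wild-type libraries (log2 fold change -0.16 ± 0.084). *PRPSAP1* and *PRPSAP2*, which bind PRPP synthetase, had values of -0.17 ± 0.137 and 0.10 ± 0.074. Of 12 tested genes of purine breakdown, 5 estimates were higher and 7 lower. *NT5C2*, a nucleotidase of IMP and GMP, was at 73.8, 79.1 and 82.0 CPM in hypomelanistic and at 89.6, 89.2 and 87.5 CPM in wild-type libraries. These groups did not overlap, yet the log2 fold change of -0.18 ± 0.061 did not pass (edgeR unadjusted p = 0.0208, adjusted p = 0.828).

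Other breakdown genes with small unadjusted p were *NT5M*, a mitochondrial nucleotidase (0.22 ± 0.081 on the log2 scale), *ITPA*, which clears deaminated purines (-0.32 ± 0.138), and *ADAL*, a deaminase (-0.23 ± 0.105). The groups did not overlap for *NT5M* and *ITPA* and overlapped for *ADAL*. *XDH*, which oxidises hypoxanthine and xanthine, stood at 0.437 to 1.68 CPM. Of 9 nucleotide kinases, 7 estimates were higher and 2 lower, with *NME4* at 0.52 ± 0.246 (groups without overlap), *GUK1* at 0.44 ± 0.247 and *AK6* at -0.13 ± 0.083. *GUK1*, which phosphorylates GMP, was at 35.4 CPM in hypomelanistic 1 and at 17.3 to 19.98 CPM in the other 5 libraries, so its estimate rested on that library.

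Folate carriers and enzymes supply the formyl groups used by *GART* and *ATIC*. Of 17 such genes, 8 estimates were higher and 9 lower. *ALDH1L2*, which oxidises formyl folate in mitochondria, was at 142 to 159 CPM in hypomelanistic and at 160 to 177 CPM in wild-type libraries, without overlap (log2 fold change -0.18 ± 0.071). *GCSH* and *GLDC* of the glycine cleavage system had estimates of 0.15 ± 0.060 and 0.66 ± 0.287, and the folate carrier *SLC46A1* of 0.20 ± 0.113. The groups of *GCSH*, *GLDC* and *SLC46A1* did not overlap either. None passed (edgeR adjusted p = 0.828 for each).

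Glycine made from serine, glutamine and aspartate give atoms to the ring. The list for serine synthesis and glutamine supply held 8 genes, not all of which supply these compounds. Of the 8, 7 estimates were lower and 1 was higher, with a median log2 fold change of -0.14 beside 0.00 over all tested genes. *PSAT1*, of serine synthesis, was at 44.7, 40.2 and 41.0 CPM in hypomelanistic and at 48.4, 45.7 and 49.7 CPM in wild-type libraries, without overlap. Its log2 fold change was -0.19 ± 0.071, and it did not pass (edgeR adjusted p = 0.828). *ASNS*, asparagine synthetase, had -0.38 ± 0.154, *GOT1*, an aspartate aminotransferase, had -0.26 ± 0.158, and *PSPH*, the last enzyme of serine synthesis, had -0.36 ± 0.252 (groups without overlap). *PHGDH*, the first enzyme of serine synthesis, was at 386 CPM in hypomelanistic 1 and at 543 to 601 CPM in the other libraries, the same low library as for *ATIC* and *IMPDH2*.

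Pyrimidine synthesis and ribonucleotide reductase were read as the companion routes of DNA precursors. Of 12 pyrimidine genes, 5 estimates were higher and 7 lower, with *DTYMK* at 0.33 ± 0.155 (groups without overlap), *CMPK1* at -0.20 ± 0.098, *CTPS2* at -0.17 ± 0.117 and *DUT* at 0.12 ± 0.090 on the log2 scale. Of 4 genes of the reductase list, 1 estimate was higher and 3 were lower. *RRM1* and *RRM2*, its subunits in dividing cells, had 0.12 ± 0.089 and -0.01 ± 0.078, *RRM2B* had -0.04 ± 0.127 and *SAMHD1*, a dNTP hydrolase, -0.05 ± 0.189.

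Among 8 regulators, 4 estimates were higher and 4 lower. *NRF1*, a transcription factor of genes for mitochondria, was at 15.3, 14.6 and 16.6 CPM in hypomelanistic and at 13.5, 11.9 and 13.5 CPM in wild-type libraries, without overlap (log2 fold change 0.25 ± 0.1002, edgeR adjusted p = 0.828). *TFE3* had 0.19 ± 0.086, *MTOR* 0.14 ± 0.087 and *ATF4* -0.13 ± 0.082. The groups of these genes did not overlap either, and none passed. Of 6 transporters, 4 estimates were higher and 2 lower, with *SLC29A3* at 0.24 ± 0.161, *ABCC4* at 0.31 ± 0.299, *SLC43A3* at -0.25 ± 0.279 and *SLC29A1* at 0.06 ± 0.084.

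**Figure D5:**
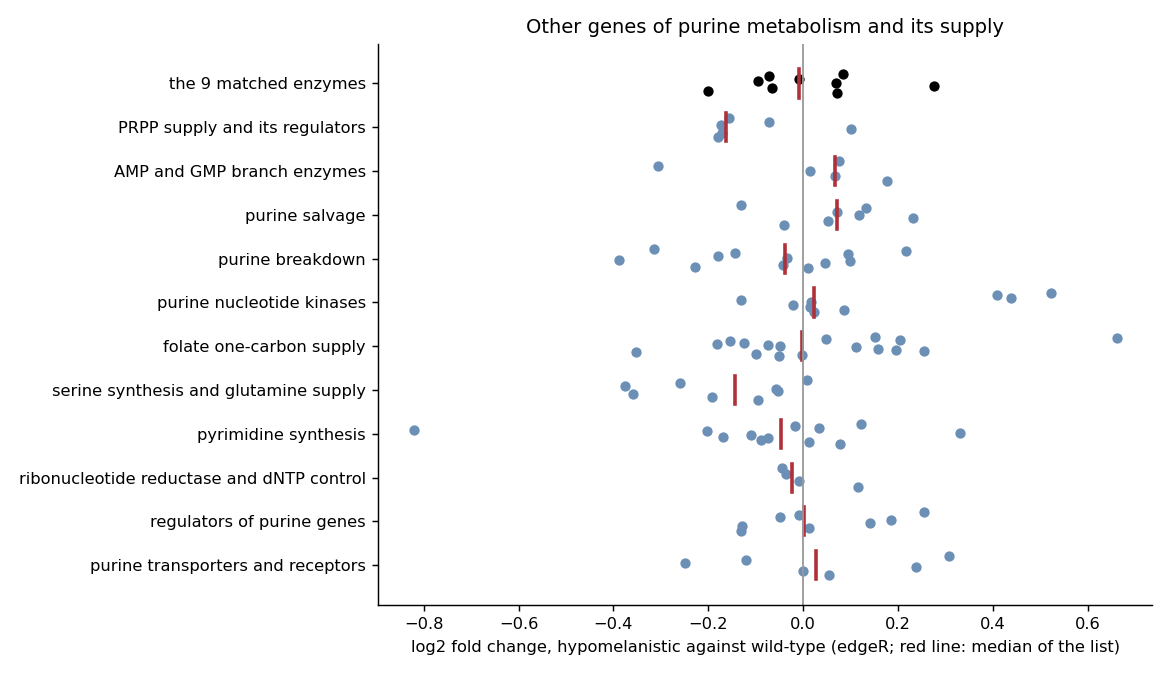
Log2 fold change, hypomelanistic against wild-type (x axis), of each tested gene of the 9 enzymes (black) and of the 11 further lists (blue), 1 row a list (y axis), with the median of each list in red. The 9 enzymes lie between -0.20 and 0.28 around a median of -0.01, and the lists scatter to both sides of 0.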

How the data were processed

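The authors deposited unnormalized read counts per gene. Per the study's methods and the submitters' notes, stranded poly(A) libraries were aligned to the CU assembly (STAR 2.7.10b), and pairs with a unique position were counted with featureCounts (Subread 2.0.6). The sources used here do not give the strand setting of the counting, which leaves overlapping genes uncertain. Of 25735 lines, 4 were broken (*DST* and *MACF1*) and left out. Each library is a separate embryo.

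Genes were kept by filterByExpr (17025) and tested with the edgeR 4.0.16 quasi-likelihood test in R 4.3.3, with TMM factors, no covariates and Benjamini-Hochberg adjustment across the tested genes (0.05). CPM used the TMM-scaled library sizes. Intervals came from the SE and a median of 7.24 degrees of freedom. TPM used the table's exon length and no TMM factors, and the permutation tests were exact. The intervals are those of log2 fold changes. SDs of levels cover the spread between these embryos, and those with n = 6 pool both genotypes. Over all genes, differences between pairs of libraries were larger than counting error (chi-square per degree of freedom from 23.3 to 76.3). For single enzymes this was not tested. *HPRT1*, at 510 to 701 counts a library, had a coefficient of variation of only 3.26% in hypomelanistic and 4.12% in wild-type libraries.

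The 10 members and the further lists were chosen with earlier results of these data known. The genes named were all members, their copies by name, *TYR*, and from each further list those past the threshold and the 4 with the smallest p. A result that this rule named is not reported here. Others, such as *APRT*, *ADK*, *IMPDH1*, *XDH*, *PHGDH*, *RRM2*, *TOP2A* and *GPNMB*, were named after their values were seen. Alternatives were other normalizations, filters, tools (DESeq2 1.42.0, limma 3.58.1), no ribosomal RNA genes, each library left out, the replicate block and summed copies.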

Additional observations from a re-analysis of the deposited data

How the results depend on the processing

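Under 16 alternatives, 0 of the 9 enzymes and 0 of the 94 further genes passed. Of 190 comparisons of an enzyme or PAICS-like, or a -like copy, with its main value, 186 kept their direction. The other 4 turned: *GART* without hypomelanistic 1 (log2 fold change 0.0052), *IMPDH2* without hypomelanistic 1 (0.0959) or without wild-type 2 (0.0388), and *PFAS* with its copies summed (-0.0288), a choice made after the data were seen. When single libraries were left out, the log2 fold change ranged from 0.15 to 0.36 for *PFAS*, from -0.13 to 0.0052 for *GART* and from -0.0658 to 0.0959 for *IMPDH2*. Of the other enzymes, *PRPS1*, *PPAT*, *ADSL*, *ATIC*, *GMPS* and *HPRT1* each moved by over 1.5 times without some library, with no change of sign and no call. The count over all genes was 4, and it was 85 with DESeq2 and 1 with the replicate block. It ranged from 2, without wild-type 2 or without wild-type 3, to 10, without hypomelanistic 1. The replicate numbers were not found to pair the samples (correlations of same-numbered deviations -0.0842, 0.113 and -0.0059), and with the replicate block 0 of the 9 enzymes passed. Without division by length, the highest of the 9 levels was 12.9 times the lowest (34.9 per kb). The mean ratio was then 0.821 for *PRPS1* to *PRPS2* (1.18 per kb) and 2.37 for *IMPDH2* to *IMPDH1* (3.30 per kb). The order of the PRPP synthetases, and of some of the 9 enzymes, thus depends on the length used. Taken as single rows, *HPRT1* was above *PFAS* per kb in all 6 libraries, but below it in CPM (16.5 to 19.0 against 26.8 to 43.2). *ADSL* was above the *GART* row and *GMPS* per kb, but below both in mean CPM in each genotype. Adding the -like rows also turned orders per kb. *PFAS* was then at 25.7 to 30.3 TPM, above *HPRT1* at 21.8 to 23.2 TPM. *GART* then had a mean of 68.9 TPM, above *ADSL* at 61.3 TPM. With 3 embryos a group, the intervals give the range of differences that these data allow. They are not a limit of detection, and the smallest difference that the test could detect was not estimated.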
